A study of Mus musculus with 2 samples.

Results

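The 7 miRNA genes Mir143, Mir145a, Mir199a-1, Mir199a-2, Mir199b, Mir214 and Mir140, known from mesenchyme, smooth muscle and cartilage, were chosen by gene name from the 1973 miRNA genes of a microRNA sequencing data set of mouse neural tube. MicroRNAs are short RNAs that repress messenger RNAs by pairing with them. Both samples belong to 1 group and are labelled as biological replicates (n = 2), from strain B6NCrl embryos at 15.5 days of development with the sexes mixed; the labels name no treatment and no altered gene. Library 1 is a pool of 78 embryos with 4228685 counts in miRNA genes, and library 2 is a pool of 62 embryos with 6039889. There is no second condition, so the data show at which level each gene was found and how far the pools differed. Levels are in CPM, counts per 1000000, for which a gene's sense-strand counts are scaled to the library's sense-strand total in miRNA genes. Means carry the SD over both libraries (n = 2). The libraries are called replicates in the labels, which give no litter or dissection day, and RNA of a pool cannot show whether a difference comes from fewer cells of a type or from less RNA per cell.

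Mir143 and Mir145a are made from the same precursor RNA and hold vascular smooth muscle cells in their contractile state. Mir199a-2 and Mir214 are also made together, from the long RNA Dnm3os, and are known from embryonic mesenchyme and skeletal development. Mir199a-1 and Mir199b are relatives of Mir199a-2 in other dynamin genes. Mir140 lies in Wwp2 and is the best known miRNA of cartilage. None of these is regarded as a neuronal miRNA, and in neural tube the usual places to look for them are vessel walls, meninges and attached connective tissue.

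The mature sequences are shown first, since they bear on which reads a gene can be given. RefSeq sequences on build GRCm38.p6 were matched for 5 of the 7 genes and gave 8 mature entries. Capitals mark the seed, bases 2 to 8, which pairs with targets, and each is written 5′ to 3′.
mmu-miR-199a-5p: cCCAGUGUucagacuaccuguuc
mmu-miR-199a-3p: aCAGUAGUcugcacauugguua
mmu-miR-199b-3p: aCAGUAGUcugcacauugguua
mmu-miR-214-5p: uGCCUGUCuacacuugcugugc
mmu-miR-214-3p: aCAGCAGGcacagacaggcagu
mmu-miR-140-3p: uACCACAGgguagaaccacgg
The entries miR-199a-3p and miR-199b-3p have the same 22 bases, which occur in the precursors of all 3 Mir199 genes. The 23 bases of miR-199a-5p occur in both Mir199a precursors. The matching arm of Mir199b differs from miR-199a-5p at 1 of 23 positions, C10U counted from the 5′ end of the mature miRNA, which lies outside the seed. The mature sequences of Mir214, and miR-140-3p as the only entry of Mir140, occur in 0 other precursors of the RefSeq table. No other arm of Mir140 had an entry, so its seed was not compared. Outside the Mir199 genes the seed of miR-214-3p is shared by miR-761, whose gene had 0 counts in both libraries, and the seed of miR-140-3p by miR-497b, whose gene had 2 and 0 sense counts.

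The precursors of the Mir199 genes show how much of each is shared. Capitals here mark bases inside any stretch of 22 bases found also in another miRNA precursor of the table, on either strand.
Mir199a-1: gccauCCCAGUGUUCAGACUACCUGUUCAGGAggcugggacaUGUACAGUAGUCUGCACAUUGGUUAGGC
Mir199a-2: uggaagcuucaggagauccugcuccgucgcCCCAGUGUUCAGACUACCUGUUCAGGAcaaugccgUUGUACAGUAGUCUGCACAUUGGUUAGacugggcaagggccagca
Mir199b: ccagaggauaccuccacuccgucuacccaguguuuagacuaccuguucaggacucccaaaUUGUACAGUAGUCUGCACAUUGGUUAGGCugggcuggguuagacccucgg
In Mir199a-1 and Mir199a-2 both mature arms lie inside shared stretches, which cover 55 of 70 and 54 of 110 bases. In Mir199b the shared stretch covers 29 of 110 bases and only the 3p arm lies in it. Mir214 and Mir140 have 0 such bases. Of the 1005 precursors in the table, 141 (14.0%) hold a stretch shared with another.

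**Figure D1:**
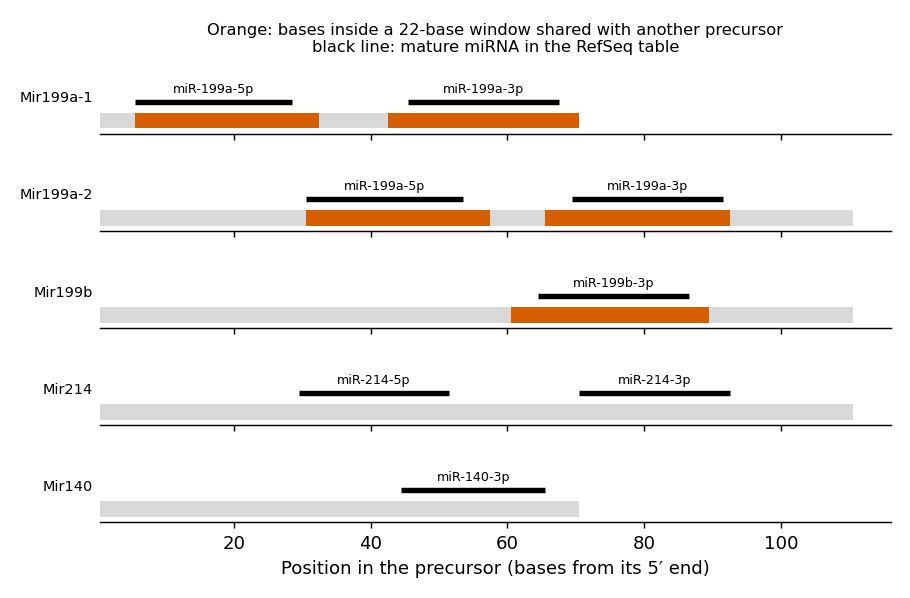
Precursors of 5 genes drawn by position in bases from the 5′ end (x axis), with bases inside a 22-base stretch shared with another precursor in orange, other bases in grey and the mature miRNAs of the RefSeq table as black lines. Both arms of Mir199a-1 and Mir199a-2 and the 3p arm of Mir199b are orange, and Mir214 and Mir140 hold 0 orange bases.

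On mm10, Mir199a-2 (ENSMUSG00000070126.1) lies on chromosome 1 at 162217814 to 162217923 and Mir214 (ENSMUSG00000065516.1) at 162223368 to 162223477, with 5444 bases between them. Both overlap an exon of Dnm3os on their own strand and an intron of the dynamin gene Dnm3 on the opposite strand. Mir199a-1 (ENSMUSG00000065547.1) lies on chromosome 9 at 21496495 to 21496564, opposite an intron of Dnm2. Mir199b (ENSMUSG00000092807.1) lies on chromosome 2 at 32318460 to 32318569, opposite an intron of Dnm1. Mir140 (ENSMUSG00000065439.1) lies on chromosome 8 at 107551244 to 107551313 and overlaps an exon of at least 1 transcript of Wwp2 on its strand. Mir143 and Mir145a lie on chromosome 18 within Carmn in the RefSeq gene table, and their identifiers have other versions in the annotation used here, so positions are not given.

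Mir143 was the most abundant of the 7 genes, and the least even between the pools of the 6 that had at least 10 counts in each library. It had 75904 counts in library 1 and 23862 in library 2, which is 17950 CPM and 3951 CPM. Library 1 was far above library 2, and the mean was 10950 ± 9899 CPM. Among all miRNA genes Mir143 ranked 10 by level in library 1 and 35 in library 2. Its partner Mir145a had 1057 and 352 counts, or 250.0 CPM and 58.3 CPM, again highest in library 1, with a mean of 154 ± 136 CPM. Both members of this smooth muscle pair were thus high in the same pool.

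Although made from a common precursor RNA, Mir143 and Mir145a gave very unequal counts. For each Mir145a count there were 71.8 Mir143 counts in library 1 (95% exact counting interval 67.6 to 76.4) and 67.8 in library 2 (61.0 to 75.5). The intervals overlap, but the difference between the ratios was not tested. A ratio of Mir143 to Mir145a is taken within a library and needs no scaling between libraries. No RefSeq sequence was matched for either gene, so stretches shared with other precursors were not looked for. Reads aligned to several places were counted in no gene, and their part in this ratio was not tested.

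The partners of the Dnm3os pair also gave unequal counts. Mir214 had 4506 and 2639 counts, which is 1066 CPM for library 1 and 437 CPM for library 2, with a mean of 751 ± 445 CPM. Mir199a-2 had 92 and 76 counts, or 21.8 CPM and 12.6 CPM, with a mean of 17.2 ± 6.49 CPM. Library 1 was the higher for both genes. The count ratio of Mir214 to Mir199a-2 was 49.0 in library 1 (39.8 to 60.9) and 34.7 in library 2 (27.6 to 44.2). These intervals overlap, but the difference between the ratios was not tested. The partners are not alike in sequence, since both mature arms of Mir199a-2 lie inside shared stretches and Mir214 has 0 such bases. The part of uncounted reads aligned to several places in this ratio was not tested.

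The other Mir199 genes had few or moderate counts. Mir199b, whose 5p arm is set apart from the Mir199a arm by the C10U difference, had 616 and 665 counts, which is 146 CPM for library 1 and 110 CPM for library 2, with a mean of 128 ± 25.2 CPM. Mir199a-1 had 12 counts in library 1 and 3 in library 2, or 2.84 CPM (1.47 to 4.96) and 0.497 CPM (0.102 to 1.45). The value in library 2 stands at the limit of 3 counts that a count of 0 allows. Mir199b, which has an arm outside the shared stretches, was above Mir199a-2 and Mir199a-1 in both libraries. Reads aligned to several places, 29.4% of all reads in library 1 and 29.7% in library 2, were counted in no gene in the deposited tables. Their part in the low counts of the Mir199 genes was not tested, and the level of the Mir199 family is uncertain.

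Mir140, of cartilage, had 12622 counts in library 1 and 18269 in library 2, or 2985 CPM and 3025 CPM. The pools were nearly level for this gene, with a mean of 3005 ± 28.2 CPM. It ranked 51 among all miRNA genes in library 1 and 48 in library 2.

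**Figure D2:**
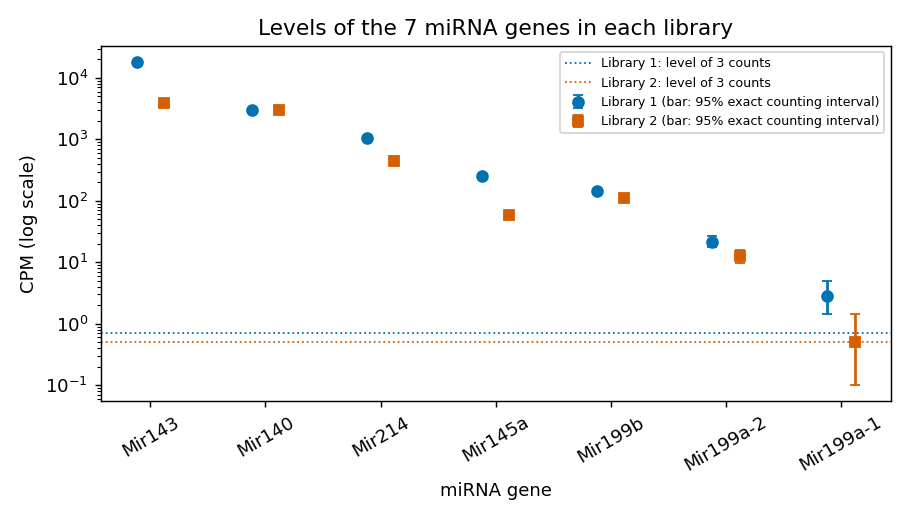
CPM on a log axis (y) of the 7 genes (x) in library 1 (circles) and library 2 (squares), with 95% exact counting intervals and dotted lines at the level of 3 counts in each library. Mir143 lies at 17950 CPM and 3951 CPM, while the points for Mir140 lie at 2985 CPM and 3025 CPM.

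By mean level the order was Mir143, Mir140, Mir214, Mir145a, Mir199b, Mir199a-2 and Mir199a-1. Size-selected reads are about as long as a mature miRNA whatever the length of its gene, so levels were not divided by gene length, and dividing them by precursor length left 7 of 7 genes at the same place. The step from Mir143 to Mir140, 7945 CPM, was smaller than the SD of Mir143, although Mir143 was the higher in both libraries. The step from Mir145a to Mir199b, 26.2 CPM, was smaller than the SD of Mir145a, and the order was reversed in library 2. The other 4 steps were larger than the SD of either neighbour and ran the same way in both libraries.

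Together the 7 genes held 22420 CPM of library 1 and 7594 CPM of library 2, with a mean of 15007 ± 10484 CPM. Their make-up differed between the pools. Mir143 took 80.1% of the 7 genes' counts in library 1 (79.8 to 80.3) and 52.0% in library 2 (51.6 to 52.5). Mir140 took 13.3% in library 1 (13.1 to 13.5) and 39.8% in library 2 (39.4 to 40.3). Mir214 took 4.75% in library 1 (4.62 to 4.89) and 5.75% in library 2 (5.54 to 5.97). Counts of the smooth muscle gene were therefore 6.01-fold those of the cartilage gene in library 1 (5.90 to 6.13). In library 2 they were 1.31-fold (1.28 to 1.33). These intervals cover counting error only.

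**Figure D3:**
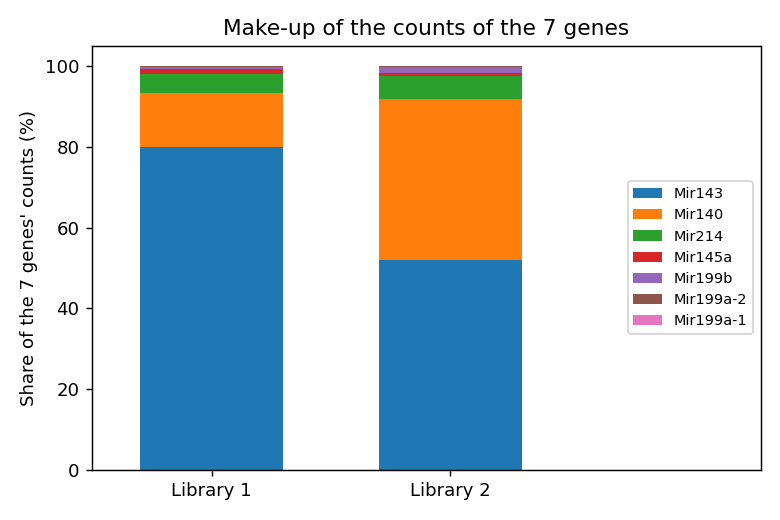
Stacked bars of each gene's share, in percent, of the counts of the 7 genes (y) in library 1 and library 2 (x). Mir143 fills 80.1% of the bar of library 1 and 52.0% of that of library 2, and Mir140 grows from 13.3% to 39.8%.

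Of the 7 genes, 6 had at least 10 counts in each library and were compared between the libraries, together with all 363 genes that passed this filter. Mir199a-1 did not pass. The comparison was an exact binomial test, two-sided, with Benjamini-Hochberg adjustment over the 363 genes. It covers counting error only and compares these libraries, not conditions. Of the 6 genes, 5 were higher in library 1, a call made for 25.6% of all genes tested, and 1 was higher in library 2, a call made for 24.2%. In either direction 6 of 6 were called, against 49.9% of all genes tested. At least 2-fold higher in library 1 were 3 of the 6, against 5.51% of all genes tested. Over the 6 genes the log2 ratio of library 1 to library 2 had a median of 1.00, and over all 363 a median of -0.0036.

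The smooth muscle pair had the highest ratios of the 6. Mir143 was 4.44-fold higher in library 1 (95% exact interval 4.37 to 4.50) and Mir145a 4.19-fold (3.71 to 4.74), places 10 and 11 among the 363 ratios. The mesenchymal Mir214 followed with 2.38-fold (2.27 to 2.50), at place 16. Mir199a-2 was 1.69-fold higher (1.23 to 2.32; exact binomial test, adjusted p = 0.00196) and Mir199b 1.29-fold (1.16 to 1.44; adjusted p = 1.51e-05). For Mir199a-1, which had too few counts for the test, the ratio was 5.58-fold with an interval of 1.51 to 30.8. The log2 ratio of Mir140 was -0.05 with an adjusted p of 0.00394 by the exact binomial test, and scaled by library sizes alone it was -0.02 and no longer called (exact binomial test, adjusted p = 0.365). The intervals of Mir143, Mir214 and Mir140 do not overlap, so the genes differed in ratio by more than counting error.

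**Figure D4:**
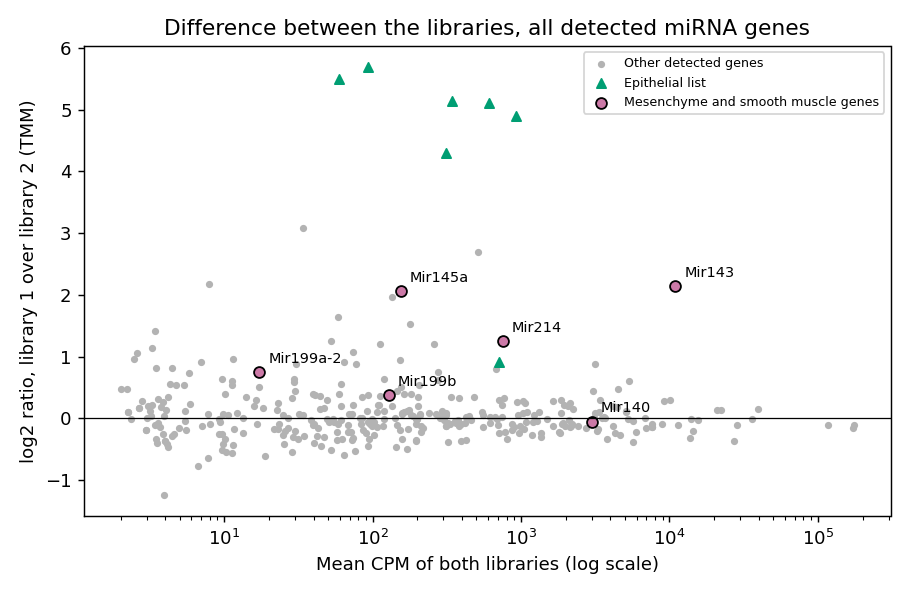
The log2 ratio of library 1 to library 2 (y) against the mean CPM on a log axis (x) for the 363 genes with at least 10 counts in each library, with 6 of the 7 genes as outlined circles, the 7 epithelial genes as triangles and other genes in grey. Mir143, at 10950 CPM, lies 4.44-fold above even, while Mir140 lies near 0.

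The binomial test leaves out the spread between pools. An edgeR exact test that adds it, with a common biological coefficient of variation of 34.3% estimated from the same 2 libraries, called 0 of the 6 genes and 2.2% of all 363. That spread was taken from the same difference between libraries that is tested, so it is no separate measure. The edgeR test can therefore name only genes that are more uneven than genes in general. At an unadjusted p under 0.05 it named 2 of the 6, Mir143 (edgeR exact test, adjusted p = 0.150) and Mir145a (adjusted p = 0.202), against 3.86% of all genes. As a sum the 7 genes were 2.88-fold higher in library 1 (2.85 to 2.92). Without Mir143 the sum was 1.20-fold higher (1.18 to 1.22), so that 1 gene carried most of the difference in the sum. Most of the sum without Mir143 was Mir140, the gene nearest to even, with a mean of 3005 of 4057 CPM. The 5 tested genes in it had a median log2 ratio of 0.76.

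Other miRNA genes of vessel wall, connective tissue and cartilage were compared from a separate list of 20, of which 18 were analysed and 16 had enough counts. By the exact binomial test 12 of them were higher in library 1, a call made for 25.6% of all genes tested, and 1 in library 2, a call made for 24.2%, and 3 were not called. EdgeR's exact test called 0 of the 16, also at an unadjusted p under 0.05. At least 2-fold higher in library 1 were 0 of the 16, against 5.51% of all genes tested, and their median log2 ratio was 0.39. In the vessel wall group, Mir21a, known from smooth muscle and fibroblasts, was at 4124 CPM in library 1 and at 2195 CPM in library 2, a log2 ratio of 0.88. Mir23a had 5292 and 3737 CPM (0.47), and the endothelial gene Mir126a 22011 and 19666 CPM (0.13). Of the 9 genes tested in this group 8 were higher in library 1, and Mir145b, which shares its name but not its place with Mir145a, had 0 counts in both libraries.

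The other cartilage genes were higher in library 1. Mir455, from the collagen gene Col27a1, reached 349 CPM there against 203 CPM in library 2, a log2 ratio of 0.74. Mir675, made from H19, had 15.1 and 7.62 CPM (0.96), and Mir148a had 185 and 138 CPM (0.39). All 3 were called higher in library 1 by the exact binomial test, against 25.6% of all genes tested, and edgeR's exact test called 0 of them. Their sum was 1.54-fold higher in library 1 (1.45 to 1.63), an interval that does not overlap that of Mir140 (0.942 to 0.986). In the fibroblast and collagen group the most abundant gene was Mir22, which was higher in library 2 with 3162 and 3484 CPM, a log2 ratio of -0.17. Mir29a, which represses collagen genes, was higher in library 1 with a log2 ratio of 0.64. The other 2 genes tested in this group were not called.

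Epithelial and leukocyte markers were also higher in library 1 as sums. The epithelial list had 7 genes, of which 7 were tested and 7 higher in library 1, against 25.6% of all genes tested. It summed to 5458 CPM for library 1 and 631 CPM for library 2, with 0 genes at 0 counts. In the leukocyte list 3 of the 4 analysed genes were tested and 2 were higher in library 1, against the same 25.6%. The leukocyte sums were 433 and 237 CPM, with Mir142b at 0 counts. The erythroid list had sums of 202 and 183 CPM, a ratio of 1.08 whose interval of 0.986 to 1.18 includes even levels, and 1 of its 3 genes was called higher in library 1, against 25.6% of all genes tested. EdgeR's exact test called 6 of the 7 epithelial genes, against 2.2% of all genes tested. It called 0 of the leukocyte and erythroid genes, also at an unadjusted p under 0.05. The part of such cells, or of attached tissue, in the ratios of the 7 genes was not tested.

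In the lists of neural tissue and striated muscle 0 genes were called higher in library 1, a call made for 25.6% of all genes tested. In the neuron list the gene with the most counts was Mir137, at 6615 CPM in library 1 and 7220 CPM in library 2. Of 9 tested genes in this list 2 were higher in library 2, a share near the 24.2% of all genes tested. The list had sums of 10539 and 11148 CPM. The 3 Mir124a copies were under 10 counts in at least 1 library. Reads aligned to several places were counted in no gene, and their part in these low counts was not tested. The glial list had sums of 2095 and 2328 CPM and 1 of 3 genes higher in library 2, against 24.2% of all genes tested. The striated muscle list had 1 of 6 tested genes higher in library 2, against the same 24.2%, and this was Mir206 with 283 and 360 CPM. The sums of the striated muscle list, mostly from Mir206, were 319 and 397 CPM. Mir133a-1 and Mir133a-2 had 0 counts, and the part of uncounted reads aligned to several places in this was not tested.

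**Figure D5:**
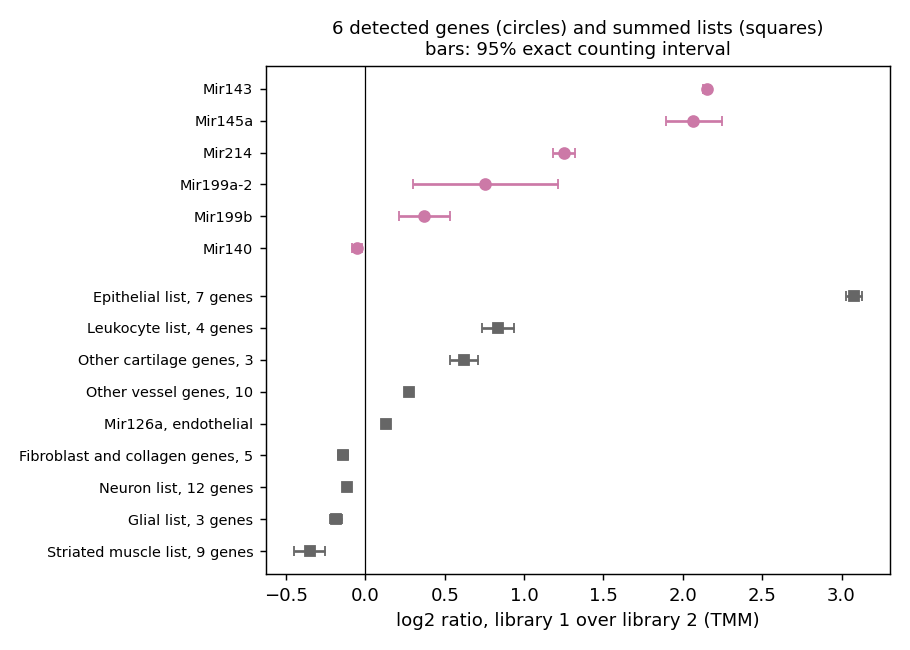
The log2 ratio of library 1 to library 2 (x) for 6 of the 7 genes (circles) and for the summed counts of other lists (squares), with 95% exact counting intervals. Mir143 and Mir145a lie between the leukocyte and the epithelial list, and Mir140 lies near 0.

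With only 2 libraries, likeness of pattern comes down to 1 ratio per gene. Among the 191 other genes of at least 100 CPM, 5 had a higher ratio of library 1 to library 2 than Mir143 and 7 a higher one than Mir214. The nearest to Mir143 were Mir192, known from gut and kidney, with a log2 ratio of 1.97, Mir375, known from endocrine cells, with 2.69, and Mir20b with 1.52, beside 2.15 for Mir143. Mir155 and Mir106a, both at 1.21, completed its 5 nearest. For Mir214, at 1.25, the nearest were the same Mir155 and Mir106a, then Mir20b, the leukocyte gene Mir223 at 0.94 and the epidermal gene Mir203 at 0.91. Mir192 itself stood at 217 CPM and 54.1 CPM, far below the level of Mir143.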

How the data were processed

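The authors deposited 1 table per library with raw read counts per annotated miRNA gene, unstranded and on each strand. Per the README deposited with each sample, the tables are on mm10 with annotation release M4. The aligner and the counter were not given in the sources used here. The unstranded count equals the sum of the strands in every gene, and the strand with the larger total was used as sense. Entries naming no gene (45.7% and 47.7% of reads, multimapping reads included) were left out. Of 1973 identifiers, 1894 matched GENCODE M21 without the version, from which symbols were taken. CPM used the sum of sense counts. The filter was 10 counts in each library, and TMM factors came from edgeR 4.0.16 (R 4.3.3). Genes were compared by an exact binomial test against TMM-scaled library sizes (scipy 1.17.1), adjusted by the Benjamini-Hochberg method at 0.05. The comparison was run on simulated counts that had counting error but no spread between pools, so its error rate with such spread was not tested. Intervals are 95% exact and, like the 3-count limit (0.709 CPM and 0.497 CPM), cover counting error only, since PCR reads without molecular identifiers are not independent molecules. DESeq2 1.42.0 size factors, library sizes alone, unstranded counts, other filters, thinning, an edgeR exact test and leaving out a library were alternatives. Named genes were all 7, the leading genes of the lists, and the 5 other genes of at least 100 CPM nearest in ratio to Mir143 and to Mir214. The 7 genes and the lists were chosen with earlier results of these data known. Mir24-1, Mir126b, Mir142, Mir486b and Mir1a-2 were not analysed here as genes of their own. Sequences came from RefSeq tables on GRCm38.p6.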

Additional observations from a re-analysis of the deposited data

How the results depend on the processing

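Of the results on the 7 genes, no ratio between the libraries changed direction under the alternatives that were run. The order of Mir145a and Mir199b was reversed when library 1 was left out, at 58.3 CPM and 110 CPM. The count of genes higher in library 2, which was 1 (Mir140), was 0 with library sizes alone, with the deeper library thinned and by edgeR's exact test. By edgeR's exact test the count higher in library 1 was 0 in place of 5 (2 at an unadjusted p under 0.05). Over all 363 genes that test called 8 in place of 93 higher in library 1, and 0 in place of 88 higher in library 2 (0 at an unadjusted p under 0.05). The summed log2 ratio of 1.53 was 1.56 with library sizes alone and 0.26 without Mir143. The summed level was 7594 CPM without library 1 and 22420 CPM without library 2. The mean count ratio of Mir143 to Mir145a, 69.8, ranged from 67.8 to 71.8 when either library was left out, and that of Mir214 to Mir199a-2, 41.9, from 34.7 to 49.0. The part of uncounted reads aligned to several places in both ratios was not tested. Counting error relative to level was largest for Mir199a-1 and Mir199a-2, which had the fewest counts of the 7 genes. No paired analysis was possible because the samples form a single group.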
